A study of Bos grunniens with 6 samples.

Results

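BRCA1, BLM and TOPAZ1 are genes of DNA repair and meiosis, and they were followed in the testis of yaks on either side of sexual maturity. They are 3 of the 20953 genes in the expression table. BRCA1 was found by its identifier (ENSBGRG00000005881), and BLM (ENSBGRG00000009348) and TOPAZ1 (ENSBGRG00000015714) by the position of a peak that the study names for each of them. The yaks (Bos grunniens) were healthy males, 3 of them 6 months old and not yet sexually mature (Y6M) and 3 of them 30 months old and mature (Y30M). The testis of each yak gave an input library and a library immunoprecipitated with an antibody against N6-methyladenosine (m6A), so that 12 libraries were sequenced by MeRIP-seq. The 3 genes come from the study's own list of genes that changed with age, so the tests of their expression below are not independent evidence of a change.

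In meiosis the cell cuts its own DNA and repairs the breaks by recombination, which joins the homologous chromosomes and allows them to separate. BRCA1 is a ubiquitin ligase that promotes repair by recombination and marks unpaired chromosomes in the spermatocyte, BLM is a RecQ helicase that unwinds recombination intermediates, and TOPAZ1 is a germ-cell protein without which male meiosis does not complete in mice. m6A is a methyl mark on adenosines of mRNA, and it is read by proteins that affect the stability and translation of the transcript.

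Of the 3 genes, BRCA1 was also measured in the study by qRT-PCR, and its primers are shown because they define the part of the transcript that this assay reads. Their sequences are given 5′ to 3′ in lower case, with no part singled out.
BRCA1-F: agtatcagggtgaagcagtatcc
BRCA1-R: tgctctttctgatgtgtcttgc
The forward primer has 23 bases with 47.8% GC and the reverse primer has 22 bases with 45.5% GC. Where the primers lie in the gene was not analysed here.

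The transcripts of all 3 genes were more abundant in mature testis. BRCA1 was 5.21-fold higher by the ratio of the group means, BLM 3.24-fold and TOPAZ1 15.3-fold. Without Y30M replicate 3 the ratio for TOPAZ1 was 9.37. Expression is given in FPKM, which counts the fragments of a gene relative to the length of its transcript and to the mapped fragments of the input library. For each of the 3 genes the lowest mature yak stood above the highest juvenile yak.

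BRCA1 had 1.55, 1.99 and 3.57 FPKM in Y6M replicates 1, 2 and 3, and 12.5, 9.48 and 15.1 FPKM in Y30M replicates 1, 2 and 3. The groups were well apart, since the lowest mature yak was 2.65-fold above the highest juvenile yak. The juvenile mean was 2.37 ± 1.06 FPKM and the mature mean 12.4 ± 2.80 FPKM (SD, n = 3 each). On the log2(FPKM + 1) scale BRCA1 rose by 2.01 (SE 0.34, 95% confidence interval 1.21 to 2.81, limma adjusted p = 0.00271).

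In the juvenile yaks BLM had 1.95, 2.71 and 4.80 FPKM, and in the mature yaks it had 9.54, 5.69 and 15.4 FPKM. Here the groups nearly met, as Y30M replicate 2 was only 1.19-fold above Y6M replicate 3. Juvenile yaks averaged 3.15 ± 1.47 FPKM and mature yaks 10.2 ± 4.89 FPKM (SD, n = 3 each). BLM rose by 1.40 on the log2(FPKM + 1) scale (SE 0.43, 95% confidence interval 0.379 to 2.41, limma adjusted p = 0.0342). Without Y6M replicate 1, the juvenile yak with the least BLM, the difference was 1.18 and no longer passed the test, with an unadjusted p above 0.05 (limma adjusted p = 0.114). The adjusted p of BLM was also above 0.05 without Y6M replicate 2 (limma adjusted p = 0.0981), without Y30M replicate 1 (0.0843) or 3 (0.0853) and with no filter on low values (0.0598).

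TOPAZ1 was scarce before maturity, with 0.0923, 0.131 and 0.241 FPKM in Y6M, and it had 1.84, 1.07 and 4.23 FPKM in Y30M. All 3 juvenile yaks lay below 1 FPKM and all 3 mature yaks above it, and the lowest mature yak was 4.43-fold above the highest juvenile yak. On average TOPAZ1 had 0.155 ± 0.0771 FPKM in juvenile and 2.38 ± 1.65 FPKM in mature yaks (SD, n = 3 each). TOPAZ1 rose by 1.44 on the log2(FPKM + 1) scale (SE 0.32, 95% confidence interval 0.685 to 2.20, limma adjusted p = 0.00912). That scale understates the change of such a low gene, and the log2 ratio of the FPKM means was 3.94. Leaving out Y30M replicate 3, the mature yak with the most TOPAZ1, lowered the fitted difference to 1.07 (limma adjusted p = 0.00296).

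**Figure D1:**
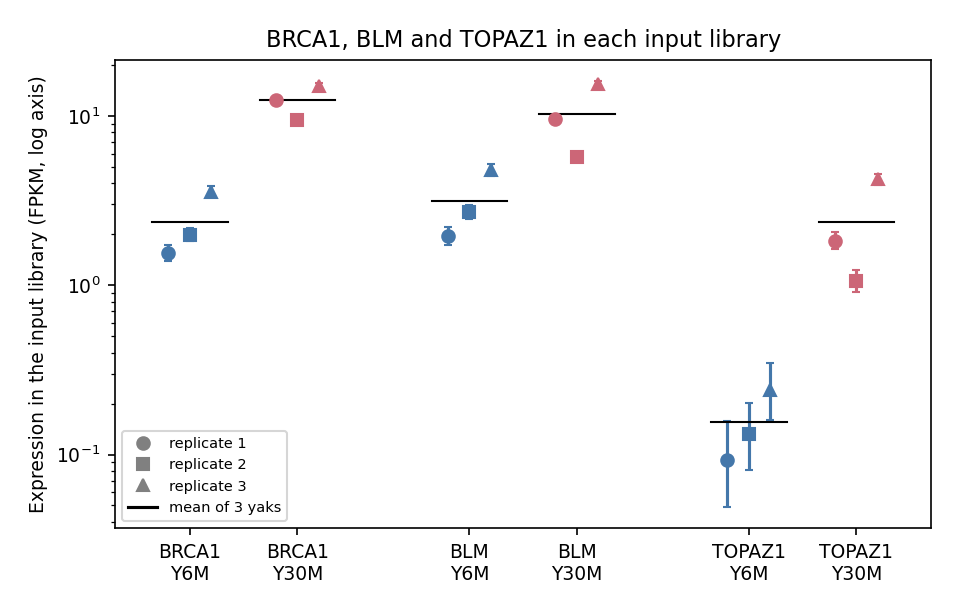
FPKM of BRCA1, BLM and TOPAZ1 in the 6 input libraries, on a log axis; each symbol is 1 yak, its bar is the 95% Poisson interval of its fragment number, and the black line is the mean of 3 yaks. In every gene the Y30M symbols stand above the Y6M symbols, and replicate 3 is the highest of its age.

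The rise of the 3 genes has to be read against a tissue in which many genes changed. Of the 19477 genes tested, 27.6% were called higher in Y30M, at an unadjusted p up to 0.05 with a change of 1.5-fold or more, and 25.3% when the adjusted p had to be at most 0.05. In 32.2% of genes all Y30M values lay above all Y6M values, as in the 3 genes here. On the log2(FPKM + 1) scale, a larger log2 fold change than that of BRCA1 was found for 11.6% of genes, for BLM 17.3% and for TOPAZ1 16.8%. The order of the 3 genes depends on that scale. With 0.1 added in place of 1, the differences were 2.39 in BRCA1, 1.65 in BLM and 3.11 in TOPAZ1. An exact two-sided permutation test gave p = 0.1 for each of the 3 genes, the smallest value that 3 yaks against 3 allow.

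Juvenile and mature testis also differed in their cells, and in bulk tissue a change in the number of cells of a type and a change in RNA per cell cannot be told apart. The summed FPKM of the Sertoli cell markers with an identifier (SOX9, FSHR and DHH, 3 of 9) ranged from 108 to 125 in Y6M and from 25.7 to 45.3 in Y30M. LHCGR, the Leydig cell marker with an identifier (1 of 6), ranged from 34.4 to 67.3 FPKM in Y6M and from 1.44 to 5.37 in Y30M. In tissue sections, however, the paper describes more interstitial cells after maturity, so the FPKM of LHCGR is not a count of Leydig cells. The spermatid marker GSG1 (1 of 9) ranged from 0.588 to 1.09 FPKM in Y6M and from 442 to 1204 in Y30M. The spermatocyte markers SYCP3 and HORMAD1 (2 of 8) summed to between 8.47 and 28.0 FPKM in Y6M and between 13.2 and 68.0 in Y30M, so that their ranges overlapped. Endothelial markers PECAM1 and CDH5 (2 of 3) summed to between 14.8 and 22.01 FPKM in Y6M and between 3.69 and 6.95 in Y30M. None of these markers was at 0 in any library, the markers of spermatogonia, myoid cells, macrophages and red blood cells had no identifier here, and the part of the cell makeup in the rise of the 3 genes was not tested.

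Within each age the 3 genes followed the same order of yaks. Replicate 3 had the most BRCA1, BLM and TOPAZ1 in both groups, Y6M replicate 1 had the least in Y6M, and Y30M replicate 2 had the least in Y30M. The highest juvenile yak exceeded the lowest by 2.30-fold in BRCA1, 2.46-fold in BLM and 2.61-fold in TOPAZ1. Among mature yaks the corresponding spread was 1.59-fold in BRCA1, 2.71-fold in BLM and 3.96-fold in TOPAZ1. Replicate 3 stood apart in other genes as well, since the deviations of its 2 libraries from their group means had a correlation of 0.604 across genes, which are not independent. With both libraries of replicate 3 left out, a comparison added after the data were seen, the log2 differences were 2.11 in BRCA1, 1.34 in BLM and 1.12 in TOPAZ1, with adjusted p from limma of 0.00590, 0.0375 and 0.00775.

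The same numbers label yaks of both ages, and the difference was also taken number by number. BRCA1 was 8.04, 4.77 and 4.22-fold higher in Y30M than in Y6M for numbers 1, 2 and 3. For BLM these folds were 4.89, 2.10 and 3.21, and for TOPAZ1 they were 19.9, 8.12 and 17.5. Each of the 9 comparisons pointed the same way, as the groups that do not overlap make certain.

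FPKM values of a gene are whole multiples of what 1 fragment is worth in a library, which gave the smallest fragment numbers that fit. They came to 335, 487 and 636 fragments for BRCA1 in Y6M, and to 2958, 2397 and 3737 in Y30M. BLM had 263, 415 and 534 fragments in Y6M and 1413, 900 and 2387 in Y30M. TOPAZ1 had 13, 21 and 28 fragments in Y6M and 284, 176 and 684 in Y30M. The juvenile TOPAZ1 values therefore carry the widest counting error, and the 13 fragments of Y6M replicate 1 have a 95% Poisson interval of 6.92 to 22.2, or 0.0492 to 0.158 FPKM. Even the upper end for the highest juvenile yak, 0.348 FPKM, lay below the lower end for the lowest mature yak, 0.915 FPKM. The intervals cover counting error only. Depth relative to Y30M replicate 1 was 0.911, 1.03 and 0.752 in Y6M and 1.07 and 1.05 in the other mature libraries.

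Per length of transcript, BLM was the most abundant of the 3 genes in juvenile testis and BRCA1 in 2 of 3 mature yaks, with TOPAZ1 the lowest in all 6 libraries. BLM to BRCA1 was 1.25, 1.36 and 1.34 in juvenile yaks and 0.763, 0.6001 and 1.02 in mature yaks (ratio of FPKM). BLM was thus above BRCA1 in all 3 juvenile yaks and, among mature yaks, only slightly so in replicate 3. The ratio was 1.32 ± 0.0570 in Y6M and 0.795 ± 0.212 in Y30M (SD, n = 3), a log2 difference of -0.76 (exact two-sided permutation p = 0.1).

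TOPAZ1 gained on both of the other genes. TOPAZ1 to BRCA1 was 0.0594, 0.0661 and 0.0674 in juvenile yaks and 0.147, 0.112 and 0.280 in mature yaks, a log2 difference of 1.38. TOPAZ1 to BLM was 0.0474, 0.0485 and 0.0503 in juvenile yaks and 0.193, 0.187 and 0.275 in mature yaks, a log2 difference of 2.14. The ages did not overlap in either ratio, and the exact two-sided permutation p was 0.1 for each. Adjusted over the 3 ratios compared, p was 0.1 for all of them, the smallest these numbers of yaks can give. Between juvenile yaks the SD was 0.00427 around a mean of 0.0643 for TOPAZ1 to BRCA1 and 0.00145 around 0.0487 for TOPAZ1 to BLM. These spreads are smaller than the counting error of the 13, 21 and 28 TOPAZ1 fragments behind them, so the closeness of the 3 values is finer than the counts can measure. Such ratios do not depend on the scaling between libraries.

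**Figure D2:**
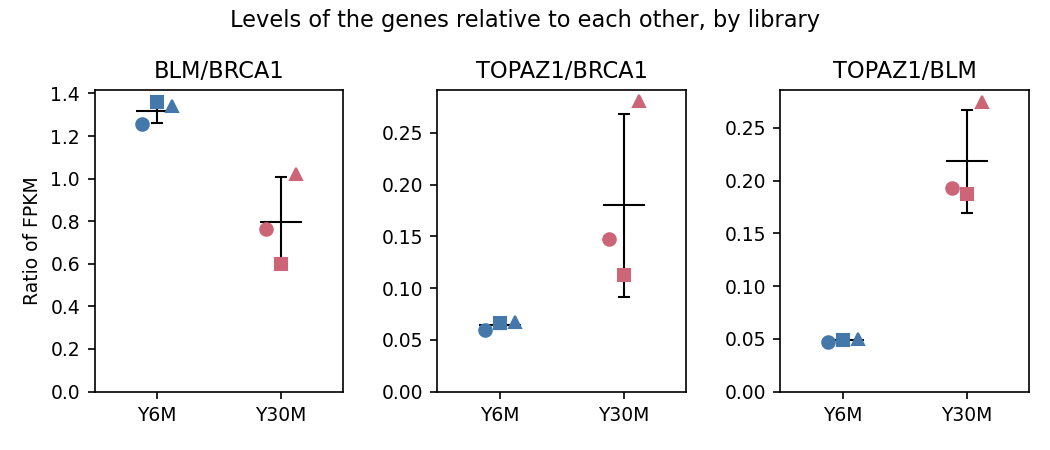
Ratio of FPKM between pairs of the 3 genes in each input library, with the mean (horizontal line) and SD of 3 yaks; circles, squares and triangles are replicates 1, 2 and 3. BLM to BRCA1 falls from 1.32 to 0.795 on average, and TOPAZ1 to BLM goes from 0.0487 to 0.218.

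Placed among the genes above 0 in the same library, BRCA1 stood higher than 33.1 to 40.3% of them in Y6M and than 60.2 to 64.9% in Y30M. BLM stood above 35.7 to 44.9% of genes in Y6M and above 50.9 to 65.4% in Y30M. TOPAZ1 stood above 9.36 to 15.1% of genes in Y6M and above 26.6 to 41.8% in Y30M. Thus BRCA1 and BLM moved from the lower to the upper part of expressed genes, while TOPAZ1 stayed in the lower part at both ages.

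The proteins that work with these genes were taken from fixed lists of repair and meiosis genes. Only 15 of the 93 genes listed could be matched to an identifier, and names were available mainly for genes that the study had called changed, so the 15 are not a fair sample of the lists. Of the 15, 7 rose, 0 fell and 8 did not pass the test, with 19% of all genes called lower and 27.6% higher. Among the 2144 tested genes with a name, 711 were called higher and 563 lower. With an adjusted p of at most 0.05, 5 of the 15 were called higher. Their median log2 fold change was 0.79, against 0.035 over all genes tested and 0.068 over the 2144 tested genes with a name.

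Among the partners of BRCA1, UIMC1 (RAP80), the ubiquitin-binding subunit that brings BRCA1 to breaks, rose from 4.66 ± 0.532 to 40.4 ± 10.2 FPKM (SD, n = 3 each). Its log2 fold change was 2.85 (limma adjusted p = 1.58e-04), against 2.01 for BRCA1, a difference between genes that was not tested. BARD1, the obligate partner of BRCA1 in the ubiquitin ligase, did not pass the test with 3.23 ± 1.96 FPKM in juvenile and 1.86 ± 0.858 FPKM in mature yaks (log2 fold change -0.51, 95% confidence interval -1.48 to 0.454). BRCA2, another protein of repair by recombination, had 3.07 ± 2.61 FPKM in juvenile and 2.08 ± 1.47 FPKM in mature yaks (log2 fold change -0.32, interval -1.58 to 0.937). The interval of BARD1 lies wholly below that of BRCA1, but the difference between these genes was not tested. BRCA2 turned to 0.17 when Y6M replicate 3 was left out and to 0.016 when Y30M replicate 2 was left out.

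Of the partners and relatives of BLM, RECQL5, another RecQ helicase, rose from 9.90 to 16.7 FPKM on average and was called at the unadjusted p (log2 fold change 0.70, limma adjusted p = 0.0672). The call was lost without any one of 5 of the 6 libraries, with Y30M replicate 3 the exception, and also with median-of-ratios scaling (0.59). RMI1, a subunit of the complex in which BLM acts, had 3.60 ± 2.91 FPKM before and 7.85 ± 7.45 FPKM after maturity, and did not pass (log2 fold change 0.79, limma adjusted p = 0.386). With the replicate number as a block RMI1 passed the unadjusted threshold (SE 0.29, limma adjusted p = 0.0606).

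Of the 15 genes listed for the synaptonemal complex and chromosome axis, 3 were matched. Of these 3, 2 were called higher, as were 27.6% of all genes and 711 of the 2144 tested genes with a name. SMC1B, the cohesin subunit specific to meiosis, went from 0.739 to 22.3 FPKM (log2 fold change 3.58, limma adjusted p = 6.82e-04). SYCP3, a component of the chromosome axis, went from 3.05 to 18.1 FPKM (2.12, limma adjusted p = 0.0190). HORMAD1, which also sits on unsynapsed axes, had 13.5 FPKM before and 17.7 FPKM after maturity and did not pass (log2 fold change 0.16), and its sign turned to -0.53 without Y30M replicate 3, to -0.23 without Y6M replicate 1 and to -0.099 without both libraries of replicate 3.

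Genes of crossing over were mixed. SPO16, a partner of the crossover protein SHOC1, went from 0.603 to 7.95 FPKM (log2 fold change 2.44, limma adjusted p = 0.00215). GEN1, a nuclease that cuts Holliday junctions, went from 1.73 to 5.64 FPKM with overlapping groups (1.20, limma adjusted p = 0.0878), and it lost its call without Y6M replicate 1 or 2, without Y30M replicate 1 or 3, with no filter and with no intensity trend. MLH3, a crossover endonuclease subunit, did not pass (log2 fold change 0.79, limma adjusted p = 0.165), but passed at an unadjusted p with the replicate block (SE 0.30, limma adjusted p = 0.0692) and without Y30M replicate 2 (1.09).

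In damage signalling, RAD9B, a paralog of the checkpoint clamp subunit RAD9A, rose from 2.42 to 9.17 FPKM (log2 fold change 1.49, limma adjusted p = 0.0221). ATR, the kinase that answers to exposed single strands, had 4.78 FPKM before and 4.79 FPKM after maturity (-0.019), and MRE11, a nuclease that trims break ends, had 5.55 and 6.19 FPKM (0.099). Neither passed the test. The sign of ATR turned with TPM (0.13), without Y6M replicate 3 (0.30) and without Y30M replicate 2 (0.31). That of MRE11 turned with median-of-ratios scaling (-0.011), without Y6M replicate 1 (-0.094) or 2 (-0.024) and without Y30M replicate 3 (-0.23).

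Of the m6A machinery, 3 of 20 genes had an identifier and all of them are readers of the mark. IGF2BP2 fell from 22.4 to 5.90 FPKM (log2 fold change -1.79, limma adjusted p = 0.00138), and its relative IGF2BP3 rose from 0.730 to 2.55 FPKM (1.02, limma adjusted p = 0.00962). YTHDF2, which promotes decay of methylated mRNA, had 19.1 FPKM before and 26.9 FPKM after maturity and did not pass (log2 fold change 0.47, limma adjusted p = 0.102), though it did with TPM (0.64). All its Y30M values nevertheless lay above all its Y6M values, as in 32.2% of all genes. By qRT-PCR the paper reports higher expression in mature testis for every reader it measured.

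**Figure D3:**
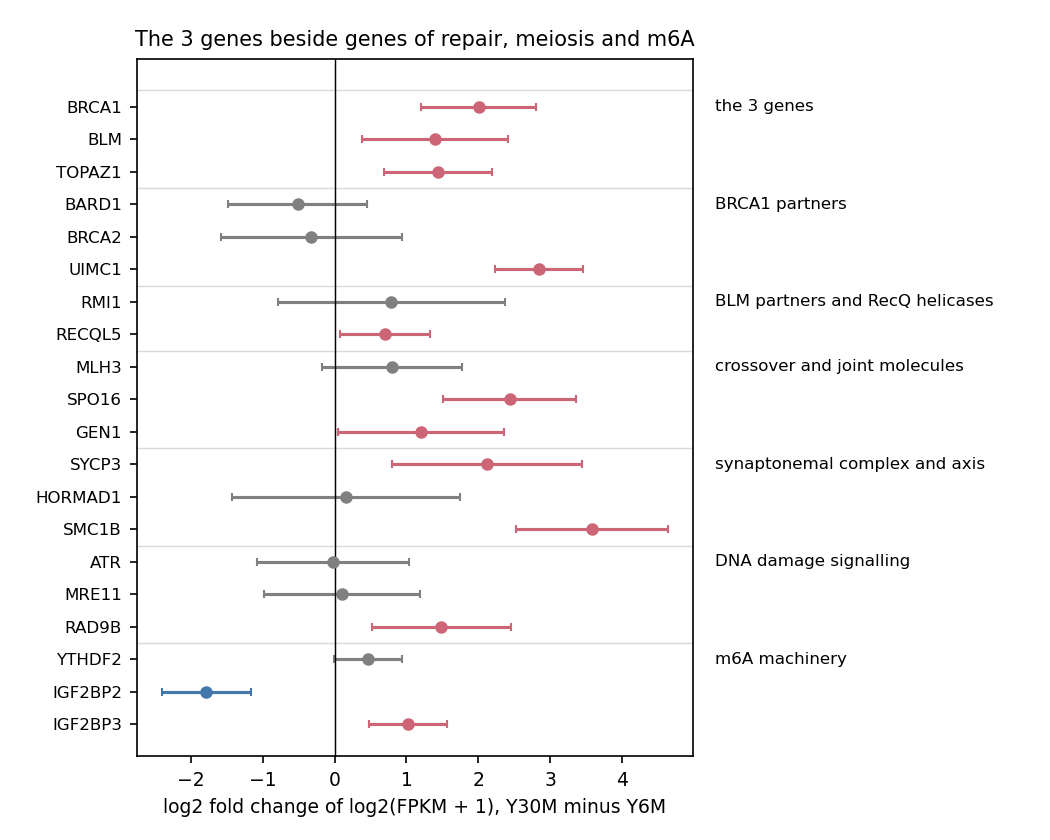
Log2 fold change (Y30M minus Y6M) on the log2(FPKM + 1) scale with its 95% confidence interval for BRCA1, BLM, TOPAZ1 and the matched genes of 6 repair, meiosis and m6A lists, n = 3 yaks per age. Red genes were called higher, blue lower and grey ones did not pass; SMC1B (3.58) and UIMC1 (2.85) exceed BRCA1 (2.01), and the point of BARD1 (-0.51) lies below 0.

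The named genes whose profiles came nearest to those of the 3 genes were sought among 2001 named genes with a mean of at least 1 FPKM, by the root-mean-square difference between centred log2(FPKM + 1) profiles over the 6 libraries. Nearest to BRCA1 were CLSPN, an adaptor of the replication checkpoint (0.0783), KIAA0586, a protein of the centrosome (0.0789), and DEPDC7 (0.149). CLSPN had 0.934, 1.29 and 2.67 FPKM before maturity and 9.94, 6.85 and 13.1 FPKM after it, the same order of yaks as BRCA1. Nearest to BLM were USP37, a deubiquitinase (0.0711), ANLN, which organises the cleavage furrow (0.131), and SESTD1 (0.133). USP37 had 2.15, 2.90 and 5.79 FPKM before maturity and 10.7, 6.14 and 15.4 FPKM after it, close to BLM in level as well. Nearest to TOPAZ1 were the transcription factor ZNF750 (0.0920), DENND2C (0.146) and TMPRSS15 (0.154). ZNF750 had 0.112, 0.0141 and 0.116 FPKM before maturity and 2.02, 1.08 and 4.08 FPKM after it.

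The m6A marks of the 3 genes were read from the table of compared peaks, in which the peaks were called over both ages together and each has a fold enrichment of immunoprecipitated over input reads. Of its 16318 peaks on 8809 genes, 13 lay on the 3 genes, with 7 on BRCA1, 2 on BLM and 4 on TOPAZ1. Positions are those of LU_Bosgru_v3.0. At least 7 peaks were found on 75 genes (0.851% of genes with a peak), and at least 4 on 712 genes (8.08%). Whether a peak lies in an exon of the coding part or in a UTR was not analysed here.

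In BRCA1, which is read on the plus strand of chromosome 19, the fold enrichment was highest in the 2 most upstream of the called peaks. Where in the gene they lie was not analysed here. The first peak, chr19:22818101-22818250, had a fold enrichment of 4.69, higher than 98.5% of all peaks. The second, chr19:22818350-22819697, is 1 unbroken block of 1348 bp with a fold enrichment of 4.18. The third, chr19:22819897-22820196, had 2.88 and the fourth, chr19:22820697-22820896, had 1.76. These 4 peaks lie within 2796 bp and cover 1998 bp of it. The remaining 3 are far downstream, at chr19:22847009-22849927 (1.38), chr19:22852646-22858739 (1.68) and chr19:22867408-22867557 (2.06). The fifth and sixth peaks are made of 2 and 3 blocks that add up to 201 and 150 bp.

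In BLM, on the minus strand of chromosome 17, both peaks lie within 497 bp. The upstream peak, chr17:22597323-22597571, had a fold enrichment of 3.13 and the downstream peak, chr17:22597075-22597224, had 4.02, higher than 78.4% and 94.7% of all peaks. In TOPAZ1, on the minus strand of chromosome 22, the 4 peaks lie within 1982 bp. From 5′ to 3′ they are chr22:49898726-49898874 with a fold enrichment of 2, chr22:49898032-49898181 with 1.95, chr22:49897438-49897685 with 2.78 and chr22:49896893-49897190 with 1.55. The highest TOPAZ1 peak was thus below both BLM peaks and below the 3 most upstream peaks of BRCA1.

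The median fold enrichment of the 13 peaks was 2.06, against 2.31 over all peaks, and 6 of the 13 stood above that median. For all 13 the table lists both the p-value and the FDR of the enrichment itself as 1, so 0 of 13 passed an FDR of at most 0.05, which 69% of all peaks did. A value of 1 is common in the table, with 4534 peaks (27.8%), and peaks with it had a median fold enrichment of 2.16, against 2.36 for peaks at an FDR of at most 0.05. Of the 38 genes with exactly 7 peaks, 5 had an FDR of 1 in all of them. The table gives no value per yak, so the enrichments carry no replicate error, and the reads behind a peak are unknown.

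A list of peaks of the juvenile yaks alone shows which of these peaks were also called before maturity. Of the 13 peaks, 4 overlapped a peak of the Y6M list by at least 1 bp (2 of 7 in BRCA1, 2 of 2 in BLM and 0 of 4 in TOPAZ1), while 75.4% of all compared peaks did. Overlap was taken between whole spans, introns included. Of the 13 peaks, 11 are a single block, against 47.6% of all peaks, and what this does to the overlap was not tested. In BRCA1 the second peak overlapped 3 peaks of the Y6M list, and the seventh had the same start and end as one of them. In BLM a single Y6M peak, chr17:22597075-22597372, spanned the downstream peak and 50 bp of the upstream one. The next Y6M peak on the upstream side, 11705 bp away at chr17:22609277-22609476, was not assigned to a gene here.

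In TOPAZ1 the nearest peak of the Y6M list was 109706 bp away. Compared peaks were rarely in the Y6M list when their gene was as low in juvenile testis as TOPAZ1. On genes with a Y6M mean below 0.5 FPKM, 17.0% of 805 peaks overlapped the Y6M list, and 60.4% had an FDR of 1. On genes with a Y6M mean from 0.5 to 5 FPKM, where BRCA1 and BLM belong, 70.9% of 4043 peaks overlapped it and 26.8% had an FDR of 1. The part of expression level in the absence of the TOPAZ1 peaks from the juvenile list was not tested. The juvenile list also held 2 peaks near BRCA1 that met none of the compared peaks, at chr19:22817751-22818051 and at chr19:22836022-22842255. They were counted with BRCA1 by position only, as were all peaks of the list within 1000 bp of the span of its compared peaks. The deposited site list for Y30M was not used here, because the copy analysed covers chromosomes 1 and 2 only. The peaks that the paper lists for each age in its supplement were not compared here either.

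**Figure D4:**
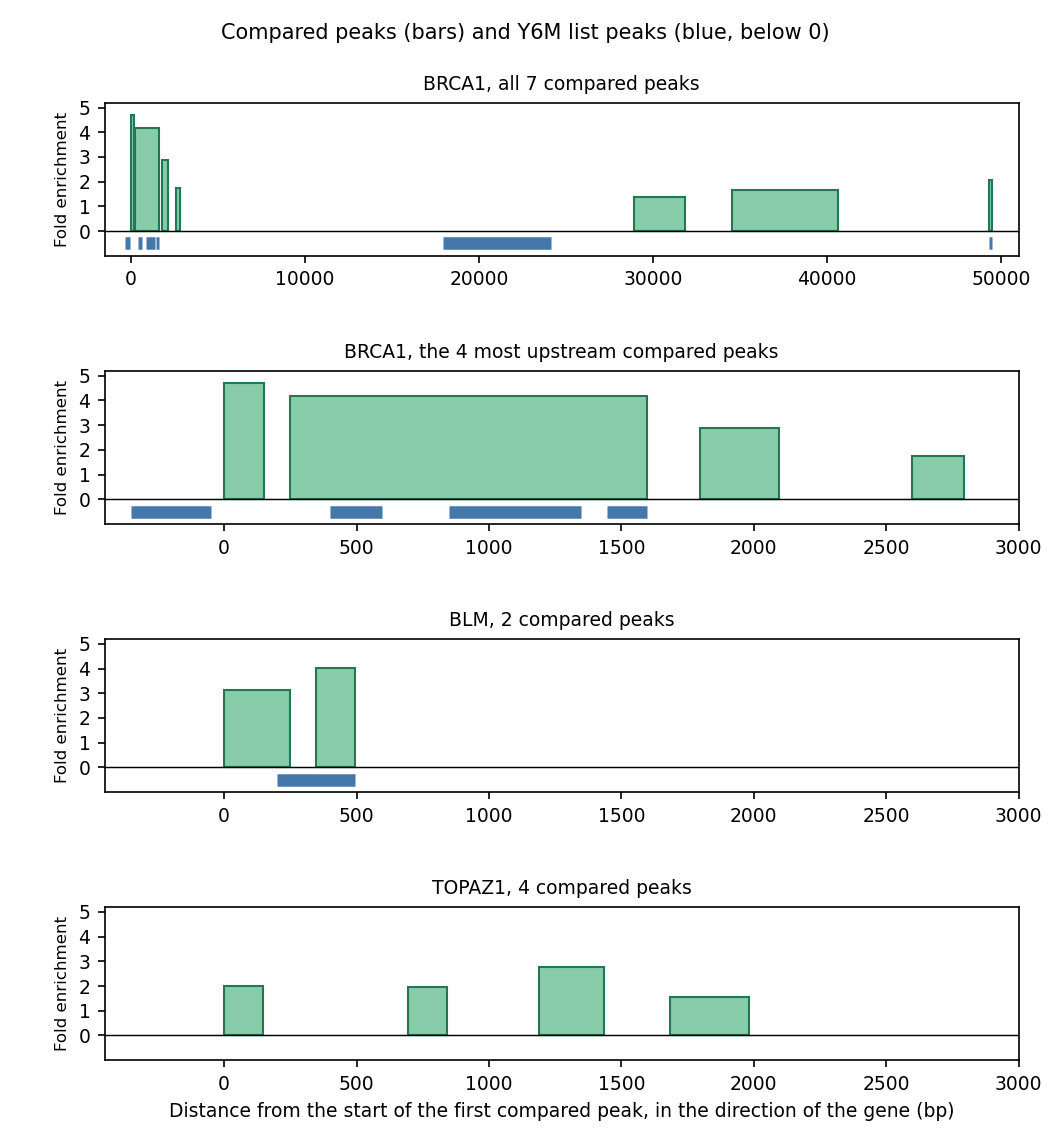
Compared peaks of BRCA1, BLM and TOPAZ1 as bars of their fold enrichment over input, by distance in bp from the start of the first peak in the direction of the gene; blue bars below 0 are peaks of the Y6M list. The second panel enlarges the 4 most upstream BRCA1 peaks, where enrichment goes from 4.69 to 1.76, and TOPAZ1 has no blue bar. Bars span from the first to the last base of a peak, introns included.

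The Y6M list scores some of the adenosines in its peaks between 0 and 1 for the prediction of an m6A site, and it calls them sites from a score of 0.528. The shares below are shares of these scored candidates, not of all adenosines, and how the candidates were chosen is not given in the sources used here. In the 6 Y6M peaks counted with BRCA1, 18 of 156 scored adenosines (11.5%, exact 95% interval 6.98 to 17.6) were predicted as sites, below the 21.5% of the whole list. Of the 156, 118 lay in the single long peak at chr19:22836022-22842255, which met no compared peak. Adenosines of 1 peak share their sequence context, so the interval covers counting error only.

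The predicted sites counted with BRCA1 were unevenly spread. In the 4 most upstream Y6M peaks, 11 of 36 adenosines were predicted (30.6%, exact 95% interval 16.3 to 48.1). In the other 2 peaks, 7 of 120 were predicted (5.83%, interval 2.38 to 11.6). This split was drawn after the scores were seen and is not tested. The highest scores, 0.719 and 0.707, belong to adenosines at positions 22818587 and 22818563 of chromosome 19, inside the second compared peak. The long Y6M peak of 6234 bp held 118 of the scored adenosines and the 7 predicted ones downstream. Whether that peak lies in an exon of BRCA1, and so whether these adenosines belong to BRCA1 mRNA, was not analysed here. In the single Y6M peak counted with BLM, 2 adenosines were scored and 0 were predicted, which allows a share of up to 84.2% by the exact interval. Y6M peaks were sought within 1000 bp of the compared peaks, which span 497 bp in BLM and 49457 bp in BRCA1. The shares are thus not comparable between the genes. TOPAZ1 had no scored adenosine and no listed Y6M peak, which follow from each other, as the list holds only peaks with a scored adenosine.

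**Figure D5:**
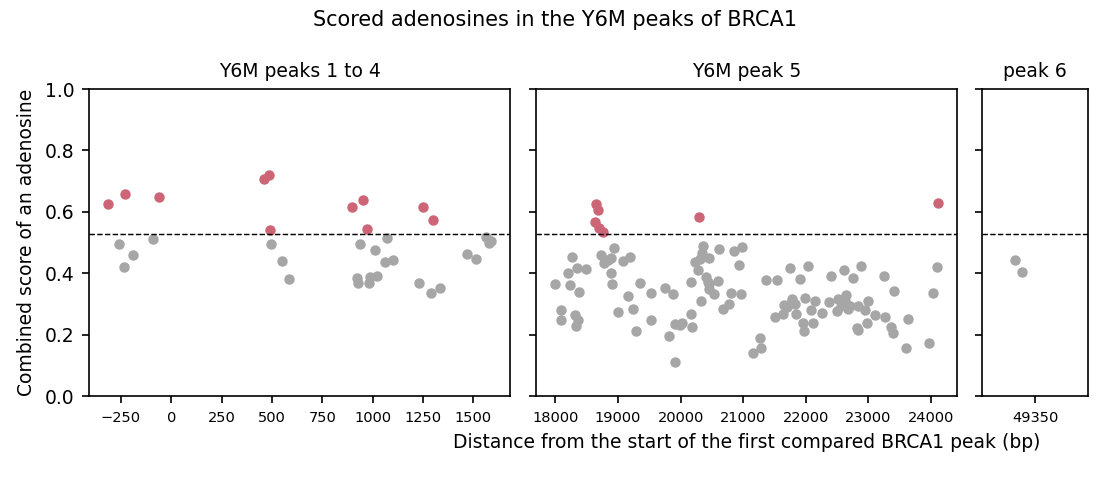
Score of each scored adenosine in the 6 Y6M peaks counted with BRCA1 by position, against its distance in bp from the start of the first compared peak. Red points are predicted sites, grey points are not, and the dashed line is the lowest predicted score, 0.528. The 2 highest points (0.719 and 0.707) lie in the left panel, which holds 11 of the 18 predicted sites.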

How the data were processed

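Testis RNA of 3 Y6M and 3 Y30M yaks was sequenced as input and m6A immunoprecipitated libraries. The authors trimmed reads with Trimmomatic, aligned them to LU_Bosgru_v3.0 with HISAT2 and deposited FPKM per gene and input library, where replicates are separate yaks. The compared peaks were deposited with a fold enrichment over input and its log10 p-value and FDR from MeTDiff. The deposited site list gives a score for some of the adenosines in Y6M peaks, and its predictor is not given in the sources used here. Columns with the authors' own comparison of ages (log2 fold change, p-value and FDR per peak) were not used.

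Here log2(FPKM + 1) of the 19477 genes above 0 in any library was fitted with limma 3.58.1 (R 4.3.3) with an intensity trend, tested on simulated data first, and p was adjusted by Benjamini-Hochberg over all of them. A gene was called at an unadjusted p up to 0.05 with a change of 1.5-fold or more, the study's thresholds. Exact permutation tests and intervals used scipy 1.17.1, and figures matplotlib 3.10.9. FPKM steps gave whole fragments (tolerance 0.05) in 1261 of 1261 genes tried, and relative depth lay between 0.752 and 1.07. The total depth of each library, for which the paper reports sequencing and alignment statistics, was not used here.

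The labels number the yaks of both ages 1 to 3 without saying that a number is shared. Deviations from the group means correlated at 0.209, 0.283 and 0.604 for equal numbers, although Y6M replicate 1 correlated more with Y30M replicate 2 (0.322). These correlations do not establish that equal numbers are pairs. The main fit, its intervals and its p-values took the yaks as unpaired. Pairing by number entered only the folds taken number by number and the replicate block.

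Genes were named in the text by this rule: BRCA1, BLM and TOPAZ1; all matched partners of BRCA1 and BLM; of each other list up to 3 called genes with the largest change and no overlap of groups and the 2 with the smallest change; and the 3 nearest profiles. Members and lists were chosen with earlier results of these data known. Names came from the study's supplementary tables for 2147 of 20953 identifiers. Peak starts were written 1-based, and whether the deposited adenosine positions count from 0 or 1 is not stated. The 1 matched gene of the list on meiotic breaks and strand exchange is counted but not reported here.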

Additional observations from a re-analysis of the deposited data

How the results depend on the processing

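Each expression difference was refitted under 16 alternatives (pseudocount 0.1, a minimum mean of 1 FPKM, no filter, TPM, median-of-ratios scaling, the replicate block, no intensity trend, stricter call rules, each library left out, and both libraries of replicate 3 left out, the last added after the data were seen). BRCA1 (1.83 to 2.39 on the log2 scale) and TOPAZ1 (1.07 to 3.11, highest with pseudocount 0.1) kept their direction and call in all 16. BLM (1.07 to 1.72) kept its direction in all 16 and its call in 15, with 1.18 and a limma adjusted p = 0.114 without Y6M replicate 1, and the cause was not tested; its limma adjusted p was above 0.05 in 5 of the 16. With single libraries left out, the differences ranged from 1.83 to 2.25 in BRCA1, 1.07 to 1.72 in BLM and 1.07 to 1.74 in TOPAZ1, and the adjusted p of BLM from limma from 0.0201 to 0.114. With the replicate block, which pairs yaks by number, the differences were 2.01, 1.40 and 1.44 for BRCA1, BLM and TOPAZ1 with limma adjusted p of 0.00172, 0.0103 and 0.00396; among the genes named here the block changed the calls of RMI1 and MLH3 and no other call.

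The number of genes called stayed within 1.5 times of 9080 under all 16 alternatives, and the share of calls that were higher was 59.2%, 65.0% with TPM and 54.4% with median-of-ratios scaling. The overlap of the 13 peaks with the Y6M list went from 4 to 2 when at least 50% of both peaks had to be shared, by the stricter rule itself. At an FDR of at most 0.01 still 0 of 13 peaks passed, and at a score of at least 0.6 the predicted share of the 158 scored adenosines went from 11.4% to 6.96%. With 13 to 28 fragments per juvenile yak, depth limits the precision of the TOPAZ1 fold.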
